A study of Mus musculus with 5 samples.

Results

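Interferon-stimulated genes are genes that a cell transcribes more when it receives an interferon signal. A list of 48 of them, given by mouse gene symbol, was followed through 4 cell classes of the kidney. It was drawn up without any threshold on values, but with earlier results of these data known. The gene table of the droplet libraries held 47 of the 48 among 28692 gene identifiers, and Mx2 had no entry of that name. By role the 47 genes are 4 transcription factors (Irf7, Irf1, Irf9, Stat2), 5 nucleic acid sensors (Ifih1, Ddx58, Ddx60, Dhx58, Zbp1), 27 antiviral effectors and 11 interferon-inducible GTPases (Gbp2, Gbp3, Gbp4, Gbp5, Gbp7, Igtp, Irgm1, Irgm2, Tgtp2, Iigp1, Ifi47). The effectors are Ifit1, Ifit2, Ifit3, Ifit3b, Isg15, Isg20, Rsad2, Cmpk2, Oasl1, Oasl2, Oas1a, Oas2, Oas3, Mx1, Usp18, Bst2, Xaf1, Herc6, Ifi44, Ifi35, Rtp4, Trim30a, Slfn5, Slfn8, Parp14, Ifi204 and Ifi205.

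The kidneys came from C57/BL6 mice aged 8 weeks. The model was a unilateral ureteric obstruction (UUO) that can be undone: urine flow from 1 kidney is blocked and can be restored. The 4 droplet libraries were a sham-operated library (day 0), a library after 2 days of UUO, a library after 7 days of UUO, and a reversed library taken 7 days after release, on experimental day 14. Each was 1 library of cells pooled from 3 mice, so no group had a replicate, no test between groups could be made, and every interval given is a 95% interval for counting error only. Nothing beyond the pooling says how far single mice varied. The fifth sample of the series, plates of Smart-seq2 wells, was not used here.

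Type I and type III interferons act through receptors that activate the kinases Jak1 and Tyk2, and a complex with Stat2 and Irf9 then binds the interferon-stimulated response element (ISRE). Type II interferon, the product of Ifng, acts through Jak1 and Jak2 and leads to binding of the gamma-activated site (GAS). The products of the stimulated genes bind foreign RNA or DNA, block viral replication or budding, mark proteins with Isg15, or attack the vacuoles of intracellular pathogens. Obstruction of the ureter brings macrophages and T cells into the kidney, where endothelium and tubule epithelium also carry interferon receptors.

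RefSeq promoters (mouse build GRCm38.p6) were matched for 37 of the 47 genes. Dhx58, Gbp4, Ifi204, Iigp1, Mx1, Oas2, Parp14, Rtp4, Usp18 and Zbp1 had no entry. Each promoter spans 300 bases, 250 before and 50 after the start. The ISRE letters, GAAA followed by any 2 bases and GAAA (on the other strand TTTC, any 2 bases and TTTC), were found in the promoters of 24 of the 37 genes, which is 64.9%, against 3.99% of all 27025 genes in the table. The GAS letters TTCNNNGAA, which read the same on both strands, were found for 11 of the 37 genes, 29.7%, against 9.55% of all genes. By role, ISRE letters were in 12 of 21 effectors, 8 of 9 GTPases, 3 of 3 sensors and 1 of 4 transcription factors (Stat2). GAS letters were in 5 of 21 effectors (Bst2, Ifi35, Ifit2, Isg20 and Oas1a), 5 of 9 GTPases (Gbp5, Gbp7, Igtp, Irgm2 and Tgtp2), 1 of 4 transcription factors (Irf1) and none of the 3 sensors. A match describes letters in this window and is not a measured binding site.

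Below are the 200 bases before the start of 6 genes that the results turn on, 5′ to 3′ on the gene's strand, with ISRE and GAS letters in capitals. Bst2, Rsad2 and Isg15 were the genes with the most UMIs in endothelium, Ifit3 and Ifit3b set the tubule apart, and Tgtp2 carries both kinds of letters.
Bst2: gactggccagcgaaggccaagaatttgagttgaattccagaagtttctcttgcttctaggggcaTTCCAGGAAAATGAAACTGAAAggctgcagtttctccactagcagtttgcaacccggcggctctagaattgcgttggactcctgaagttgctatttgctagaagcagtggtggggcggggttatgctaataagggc
Rsad2: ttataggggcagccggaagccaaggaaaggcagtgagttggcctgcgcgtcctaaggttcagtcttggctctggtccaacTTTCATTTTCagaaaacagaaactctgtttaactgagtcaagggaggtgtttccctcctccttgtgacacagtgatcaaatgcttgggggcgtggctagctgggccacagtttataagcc
Isg15: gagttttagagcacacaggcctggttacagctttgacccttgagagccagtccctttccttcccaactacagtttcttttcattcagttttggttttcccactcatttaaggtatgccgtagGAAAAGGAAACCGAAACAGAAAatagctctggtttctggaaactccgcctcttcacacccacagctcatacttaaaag
Ifit3: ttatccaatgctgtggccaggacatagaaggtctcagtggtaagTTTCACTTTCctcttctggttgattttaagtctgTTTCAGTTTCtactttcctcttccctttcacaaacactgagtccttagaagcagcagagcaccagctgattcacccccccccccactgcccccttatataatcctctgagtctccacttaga
Ifit3b: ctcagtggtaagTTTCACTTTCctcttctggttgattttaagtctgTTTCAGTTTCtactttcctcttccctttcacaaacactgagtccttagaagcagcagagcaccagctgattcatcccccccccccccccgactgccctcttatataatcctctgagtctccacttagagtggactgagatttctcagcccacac
Tgtp2: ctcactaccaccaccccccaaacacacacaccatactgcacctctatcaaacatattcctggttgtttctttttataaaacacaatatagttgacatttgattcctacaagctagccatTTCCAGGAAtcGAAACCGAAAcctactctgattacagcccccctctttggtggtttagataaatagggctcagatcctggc
The Bst2 stretch (chr8:71537473-71537672, minus strand) holds 2 ISRE matches that overlap each other and 1 GAS match that overlaps the first of them. The Rsad2 stretch (chr12:26456453-26456652, minus strand) holds 1 ISRE match, and the Isg15 stretch (chr4:156200819-156201018, minus strand) 3 overlapping ones. The Ifit3 stretch (chr19:34583329-34583528, plus strand) and the Ifit3b stretch (chr19:34607757-34607956, plus strand) hold 2 ISRE matches each. Shifted by 32 bases, these neighbouring genes were identical at 138 of 168 positions (82.1%). Whether the authors' counting split reads between the similar transcripts of Ifit3 and Ifit3b reliably was not tested. The Tgtp2 stretch (chr11:49064213-49064412, minus strand) holds 1 GAS match followed by 1 ISRE match.

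Cells were assigned to gates by the share of their unique molecular identifiers (UMIs, 1 per captured transcript end) in marker lists that contain none of the 47 genes. The phagocyte gate held 72 sham, 538 day 2, 2341 day 7 and 600 reversed cells, and the T cell gate 18, 102, 286 and 250. The endothelial gate held 230, 160, 482 and 365 cells, and the tubule gate 3266, 1097, 759 and 1609. The sham T cells, under the minimum of 50, were left out of comparisons. Marker genes not used for the gates followed the labels. A macrophage list (C1qa, C1qb, C1qc, Adgre1, Lyz2, Ccr2) summed to 14687 to 23980 CPM in phagocytes (a gene's UMIs scaled to a common total of UMIs per gate and library) and to at most 2228 elsewhere. A T cell list (Cd28, Thy1, Cd5, Cd6, Ccl5, Ltb) summed to 4580 to 12935 CPM in T cells and to at most 284 elsewhere. An endothelial list (Ptprb, Cd34, Ehd3, Robo4, Nos3, Tek) summed to 2642 to 3378 CPM in endothelium and to at most 85.7 elsewhere. A tubule list (Kap, Fxyd2, Miox, Spink1, Ass1) summed to 8452 to 25797 CPM in the tubule and to 573 to 5020 CPM in the other gates, the highest in sham T cells. Natural killer genes stood at 153 to 439 CPM in the T cell gate. B cell genes stood at 358 to 589 CPM in endothelium, of which Ebf1 alone made 349 to 581.

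Libraries held 18649637 sham, 19689924 day 2, 30462683 day 7 and 22943957 reversed UMIs, with medians of 2480.5, 5592, 5668 and 4709 per cell. Of 16730 barcodes, 146 (0.873%) occurred in more than 1 library. Values that follow in groups of 4 are in the order sham, day 2, day 7, reversed. The median mitochondrial share of tubule cells was 34.9%, 21.1%, 11.2% and 28.3%, against at most 4.81% in the other gates.

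The interferon-stimulated genes stood highest in endothelium and lowest in tubule cells in every library. Summed over the 47 genes, endothelium gave 4360 CPM (interval 4200 to 4524), 3169 (3047 to 3294), 6886 (6774 to 6999) and 6479 (6360 to 6600). Phagocytes gave 2920 CPM (2718 to 3133), 1479 (1448 to 1510), 3751 (3721 to 3780) and 2579 (2534 to 2626). T cells gave 2124 CPM (1703 to 2616), 1343 (1238 to 1454), 2541 (2454 to 2632) and 2940 (2831 to 3052). Phagocytes and endothelium thus had their lowest sum on day 2. T cells did so among the libraries from day 2 on, and their sham sum rests on 18 cells and 88 UMIs. Tubule cells gave 162 CPM (154 to 169), 438 (424 to 453), 877 (854 to 901) and 430 (417 to 443), with the lowest sum in sham. At a mitochondrial limit of 20%, the tubule sum was instead lower on day 2 than in sham. Under the main settings, day 7 had the highest sum in phagocytes, endothelium and tubule, and the reversed library had it in T cells. Under the gate scoring used first, described with the processing, the T cell sum was instead higher on day 7 than after reversal. The order of endothelium above and tubule below the other gates held in each library under the 11 settings that gave a value for all gates.

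**Figure D1:**
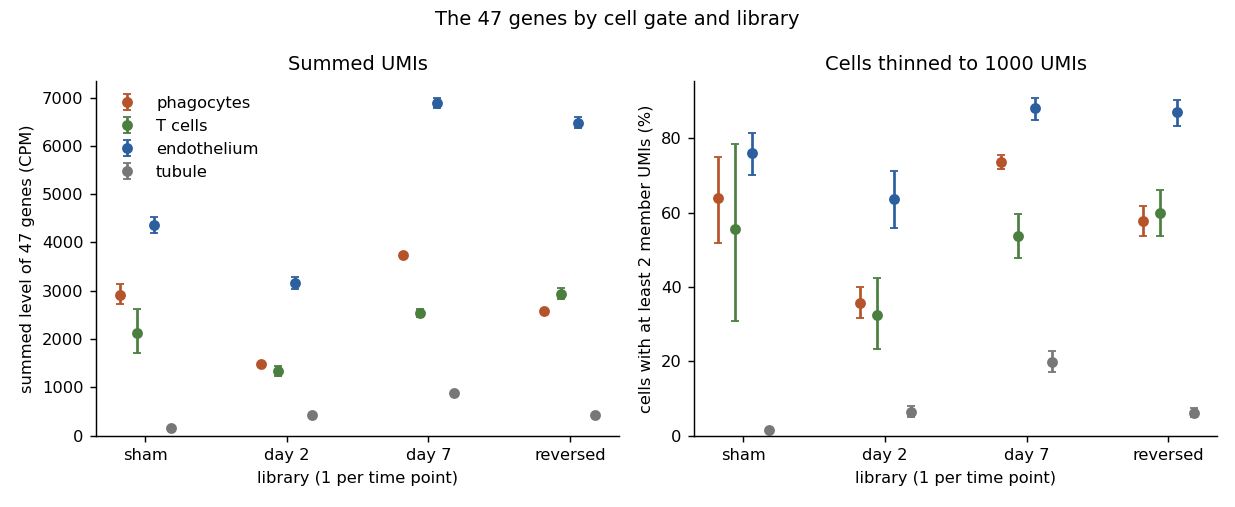
Left, summed CPM of the 47 genes by library for the 4 cell gates, with exact Poisson 95% intervals. Right, percent of cells with at least 2 UMIs of the 47 genes after thinning each cell to 1000 UMIs, with exact binomial 95% intervals. Endothelium lies above the other gates and the tubule below them in each library, at 6886 and 877 CPM on day 7.

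A list of 10 immediate-early and heat shock genes that dissociation can induce (Fos, Jun, Junb, Egr1, Atf3, Fosb, Ier2, Dusp1, Hspa1a, Hspa1b) was also summed. It came to 2105, 3390, 2731 and 4799 CPM in phagocytes, and 1287, 1922, 2562 and 3681 in endothelium. In T cells it came to 1110, 1880, 1556 and 2123 CPM, and in the tubule to 253, 996, 1383 and 1084. In the tubule it was lowest in sham and highest on day 7, as the 47 genes were under the main settings. In T cells both were highest after reversal under the main settings. In phagocytes and endothelium the list was lowest in sham and highest after reversal. At a mitochondrial limit of 20%, the tubule sum of the 47 genes was no longer lowest in sham. Under the gate scoring used first, their T cell sum was higher on day 7 than after reversal. The part of the list in the interferon-stimulated levels was not tested.

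Among the effectors, Bst2, which tethers budding virions to the membrane, gave the most UMIs in all 4 gates. Its level in endothelium was 688, 428, 933 and 767 CPM. In phagocytes it was 332, 187, 447 and 351 CPM, and in T cells 193, 114, 211 and 161. In the tubule Bst2 stood at 10.8, 40.5, 115 and 46.5 CPM. Day 2 was thus a low point in endothelium and phagocytes and above sham in the tubule. In T cells day 2 was lowest from day 2 on, and the sham value rests on 18 cells.

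Rsad2, the radical enzyme viperin that makes a chain-terminating nucleotide, differed widely between cell classes. Endothelium held 646, 229, 628 and 848 CPM. Phagocytes held 7.55, 9.39, 52.1 and 43.6 CPM, T cells 24.1, 6.69, 26.5 and 26.8, and the tubule 1.54, 4.69, 15.7 and 9.91. Its lowest endothelial library, day 2, was above the highest library of each other gate. Ifi44, an interferon-induced cytoplasmic protein, had 181, 151, 356 and 302 CPM in endothelium and 11.3, 2.68, 22.2 and 15.2 in phagocytes, so these groups did not overlap either. Isg15, the ubiquitin-like modifier, was more evenly spread: 189, 167, 401 and 334 CPM in endothelium, 113, 68.7, 224 and 130 in phagocytes, 121, 49.1, 150 and 193 in T cells, and 3.61, 12.5, 36.4 and 19.5 in the tubule.

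Some effectors stood higher in phagocytes than in endothelium, and others did not. Ifi204, a p200 family protein that binds DNA, stood at 166, 109, 226 and 157 CPM in phagocytes and at 26.3, 43.6, 99.1 and 90.3 in endothelium. Ifi205 of the same family stood at 60.4, 72.9, 83.5 and 76.6 CPM in phagocytes, and at most at 6.94 in endothelium, 4.02 in T cells and 2.24 in the tubule. Trim30a, of the tripartite motif family, was at 121, 72.4, 191 and 129 CPM in phagocytes and at 72.7, 94.6, 177 and 153 in endothelium, so neither gate led throughout. Rtp4, a transporter-like protein, was at 143, 69.7, 164 and 98.4 CPM in phagocytes, below its 155, 133, 205 and 186 in endothelium in each library. Mx1, of the dynamin-like GTPase family, was near 0 in endothelium, with 0 UMIs in sham and on day 2 (at most 4.64 and 3.74 CPM, from 3 counts), then 3.33 and 1.74 CPM. The same gene was at 3.77, 7.71, 27.3 and 19.6 CPM in phagocytes and at 2.23, 31.3 and 20.4 in T cells from day 2 on.

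Irf7, the transcription factor that amplifies type I interferon production, was at 148, 144, 282 and 245 CPM in endothelium and at 162, 70.1, 229 and 111 in phagocytes. In T cells it was at 24.1, 22.3, 90.0 and 70.7 CPM and in the tubule at 2.26, 11.9, 37.6 and 13.6. Endothelium and phagocytes overlapped for Irf7, and both lay above the tubule. Of the sensors, Zbp1, which binds left-handed nucleic acid, was at 48.3, 75.8, 119 and 115 CPM in T cells and at 26.3, 11.2, 99.5 and 81.6 in endothelium.

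Among the GTPases, Iigp1, which acts on pathogen vacuoles, was highest in endothelium in all 4 libraries, at 138, 122, 335 and 297 CPM. Phagocytes held 34.0, 4.53, 66.5 and 33.7 CPM of it, and T cells 0, 8.92, 30.5 and 57.9, the sham value having a floor of 72.4. Its relative Ifi47 was instead highest in T cells, at 241, 163, 155 and 199 CPM. Gbp7, a guanylate-binding protein, was at 48.3, 71.4, 125 and 153 CPM in T cells and at the higher 107, 84.7, 198 and 162 in endothelium. Igtp and Irgm2 overlap on the same strand, so their reads may not be split reliably.

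**Figure D2:**
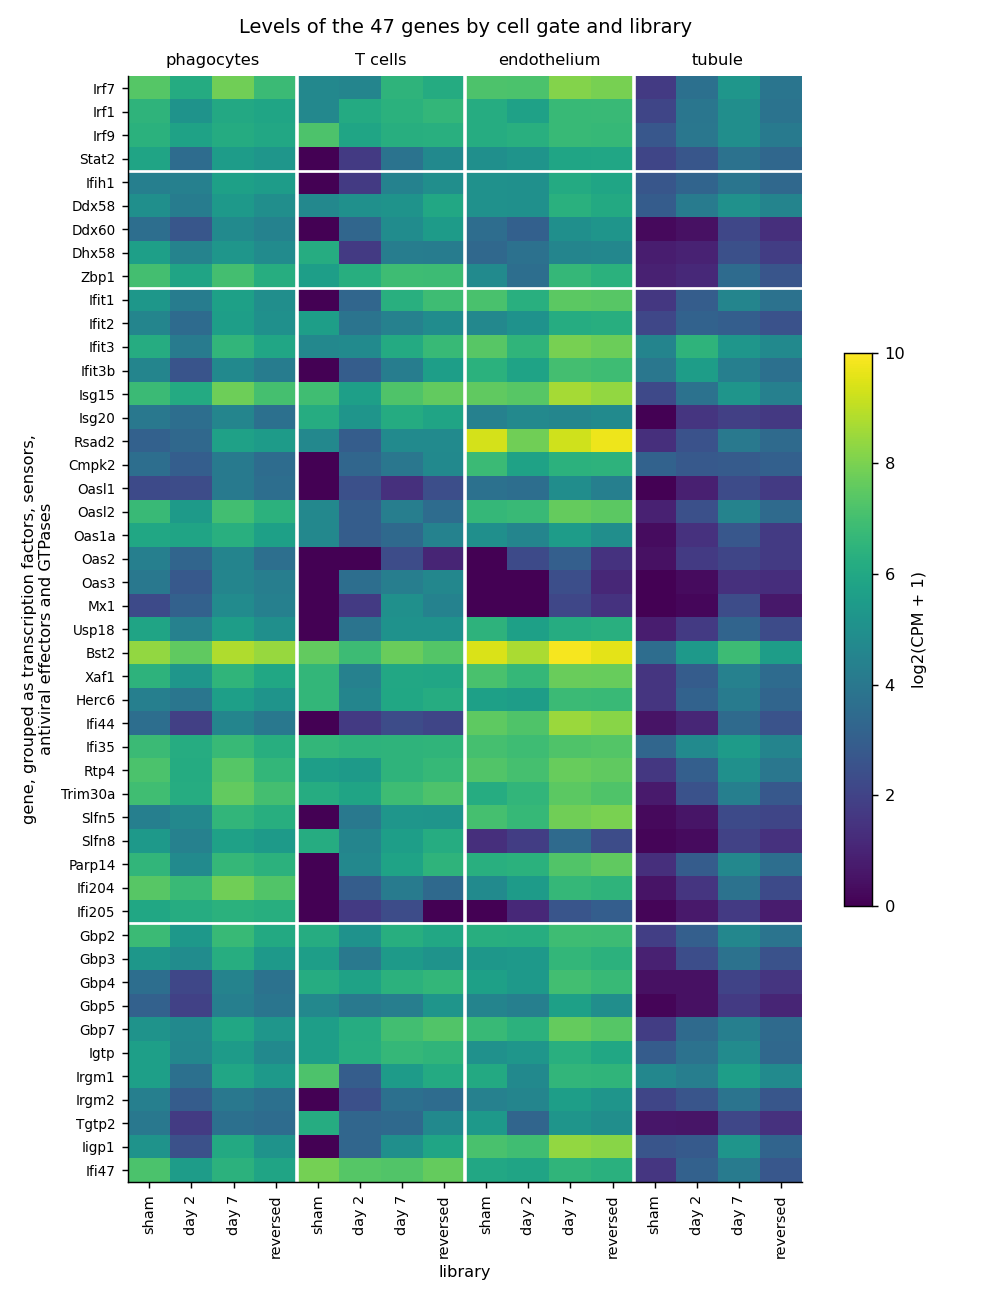
Heat map of log2(CPM + 1) for each of the 47 genes (rows, grouped by role) in each gate and library (columns). On day 7, Bst2 is at 933 CPM in endothelium and 115 in the tubule, and Ifi204 is at 226 CPM in phagocytes and 12.8 in the tubule.

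**Figure D3:**
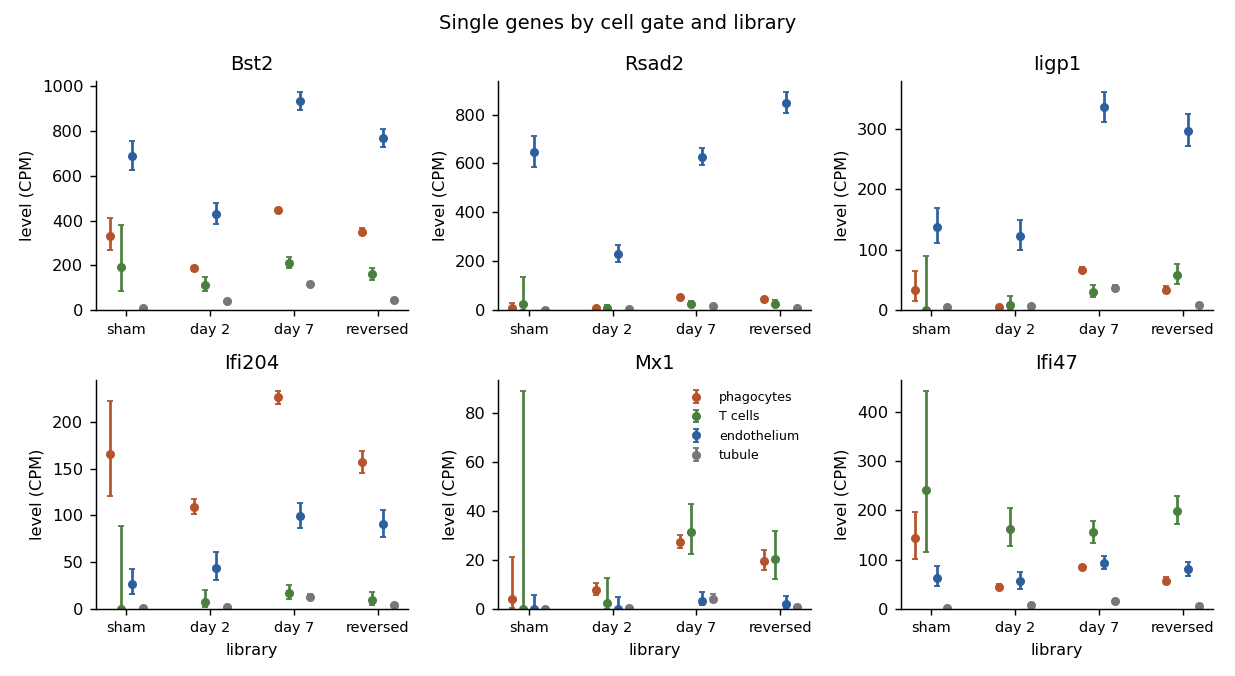
CPM of Bst2, Rsad2, Iigp1, Ifi204, Mx1 and Ifi47 by library in the 4 gates, with exact Poisson 95% intervals. Bst2, Rsad2 and Iigp1 are highest in endothelium, Ifi204 in phagocytes and Ifi47 in T cells, and Mx1 is at most 3.33 CPM in endothelium.

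In the 3 libraries after sham, 43 genes were compared to ask which gate held the highest level. Enough UMIs in every gate was not required, so a gene could enter through the gate where it was high. Ifi205, for example, entered with 0 CPM in T cells of the reversed library. The counts that follow therefore include genes that were near the floor in other gates. Endothelium was highest in each of the 3 for 27 of the 43 genes, 62.8%, against 28.4% of 8696 genes. Phagocytes were highest for 4 (Dhx58, Oas1a, Ifi204 and Ifi205), 9.30% against 7.9%. T cells were highest for 3 (Isg20, an exonuclease, Igtp and Ifi47), 6.98% against 13.1%. The tubule was highest for 0 genes against 14.6%. The other 9 (Irf1, Ddx58, Ddx60, Zbp1, Trim30a, Slfn8, Gbp4, Gbp5 and Tgtp2) had different leading gates in different libraries.

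At equal depth, the share of cells with interferon-stimulated transcripts gave the same order of gates at the extremes. Each cell was thinned to 1000 UMIs, which 0 cells of the gates fell short of, and cells with at least 2 UMIs of the 47 genes were counted. In endothelium this was 76.1%, 63.8%, 88.2% and 87.1% of cells, and in phagocytes 63.9%, 35.7%, 73.7% and 57.8%. In T cells it was 55.6%, 32.4%, 53.8% and 60.0%, and in the tubule 1.65%, 6.29%, 19.9% and 6.15%. At 1000 UMIs per cell, then, at least 2 UMIs were detected in most endothelial cells of each library and in at most 19.9% of tubule cells, of which 53.1% had 0 on day 7; a cell without a UMI at this depth may still express the genes. Without thinning the shares were 84.7% to 99.3% in phagocytes, 77.8% to 96.4% in T cells, 93.9% to 100% in endothelium and 7.29% to 83.7% in the tubule. The 10% of cells with the most UMIs of the 47 genes held, after thinning, 27.5% to 46.5% of them in phagocytes, T cells and endothelium, and 46.4% to 100% in the tubule. In the sham tubule 90.4% of cells had 0 such UMIs, so the 10% with the most had to hold all of them. The share in the top 10% rises as counts fall, so it cannot be compared between these gates.

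The next comparisons follow each gate from sham through obstruction to reversal. Ratios are log2 of CPM with 1 CPM added to each side, which understates differences of low genes. A gene entered when the mean of its 2 CPM values gave at least 5 expected UMIs at the smaller of the 2 totals. It could thus enter through 1 library where it was high. A ratio of at least 1 or at most -1, a difference of 2-fold or more, was counted as past the fold limit. Day 2 enters 2 of the 3 comparisons and day 7 enters 2, so the comparisons share libraries.

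**Figure D4:**
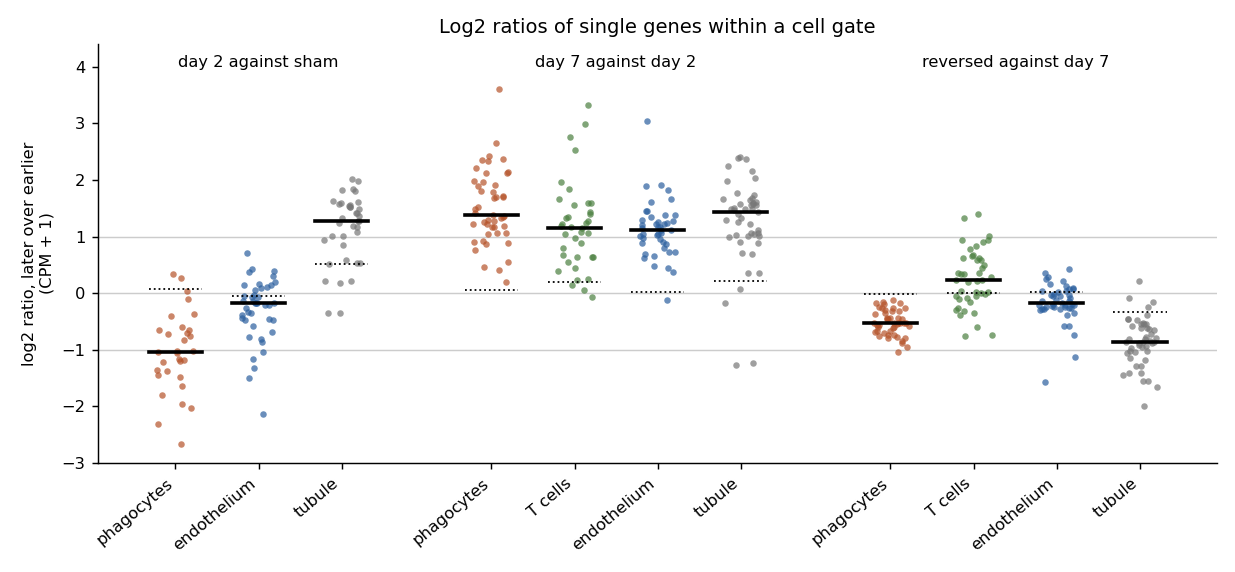
Log2 ratio of each gene with enough UMIs (points) by gate in the 3 comparisons, with the median over the interferon-stimulated genes (solid line) and over all genes compared (dotted line). For day 7 against day 2 the medians of the interferon-stimulated genes lie between 1.12 and 1.44 in all 4 gates.

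In phagocytes, the genes were lower on day 2 than in sham. Of 31 genes with enough UMIs, 28 were lower and 18 were past the fold limit, where 8.83% of all 5309 genes were. In the higher direction 0 were past it, against 9.46% of all genes. The median log2 ratio was -1.03, against 0.08 over all genes. The lower genes past the limit were 3 of 4 transcription factors, 2 of 4 sensors, 8 of 16 effectors and 5 of 7 GTPases. Iigp1 went from 34.0 to 4.53 CPM, a log2 ratio of -2.66 (-3.70 to -1.47). Stat2, the interferon-specific STAT, went from 56.6 to 10.6 CPM, -2.32 (-3.12 to -1.43). Ifit3, an RNA-binding complex partner of Ifit1, went from 71.7 to 16.8 CPM, -2.03 (-2.74 to -1.26). The intervals of the 3 genes with higher values included 0: Slfn5 at 0.34 (-0.87 to 1.84), Ifi205 at 0.27 (-0.44 to 1.07) and Ifih1, the RNA sensor MDA5, at 0.03 (-1.19 to 1.54). The 16 genes without enough UMIs were Ddx60, Ifit2, Ifit3b, Isg20, Rsad2, Cmpk2, Oasl1, Oas2, Oas3, Mx1, Herc6, Ifi44, Gbp4, Gbp5, Irgm2 and Tgtp2. The sham side rests on 72 cells, and with at least 20 expected UMIs 6 of 11 genes were past the limit. The tubule list stood in the phagocyte gate at 4059 CPM in sham and 759 on day 2. The part of tubule RNA in these ratios was not tested.

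In day 7 phagocytes all 47 genes stood above their day 2 level. Of them, 38 were past the fold limit, against 7.0% of all 12253 genes, and 0 were past it in the lower direction, against 2.69%. The median log2 ratio was 1.38, against 0.05 over all genes. The 38 were 2 of 4 transcription factors, 4 of 5 sensors, 23 of 27 effectors and 9 of 11 GTPases. Iigp1 went from 4.53 to 66.5 CPM, 3.61 (3.15 to 4.09), Ifi44 from 2.68 to 22.2, 2.65 (2.09 to 3.21), and Ifit3 from 16.8 to 94.6, 2.43 (2.15 to 2.72). Ifi205 had the smallest difference, 0.19 (0.04 to 0.35). Phagocytes with at least 10 UMIs of C1qa, C1qb and C1qc per 10000, a macrophage-like fraction, went from 1288 to 3872 CPM over the 47 genes, with 40 genes past the limit. The C1q-low remainder went from 1681 to 3082 CPM, with a median of 0.90 and 20 genes past the limit. C1q-high cells were 239 of 538 phagocytes on day 2 and 2047 of 2341 on day 7.

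After reversal all 47 genes were lower in phagocytes than on day 7, by less than 2-fold for 46 of them. The median was -0.53 against -0.01 over all genes. Irf7 alone was past the limit, at -1.04 (-1.17 to -0.91), from 229 to 111 CPM. That is 1 of 47, against 0.675% of all 12293 genes, and 0 were past it in the higher direction, against 2.86%. Iigp1 was at -0.96 (-1.20 to -0.72) and Oas2, which makes the oligoadenylates that activate RNase L, at -0.88 (-1.28 to -0.49). The intervals of 40 of the 47 lay below 0. C1q-high phagocytes stood at 2937 CPM and C1q-low ones at 1920 in the reversed library, with 1 and 9 genes past the limit in the lower direction. Thinned to 1000 UMIs per cell, 5 of 46 genes were past it.

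In T cells, most of the genes stood higher in the day 7 library than in the day 2 library. Of 38 genes with enough UMIs, 37 were higher, with a median of 1.16 against 0.21 over all genes. Past the fold limit were 23, against 10.7% of all 7195 genes, and 0 in the lower direction, against 3.17%. These were 16 of 22 effectors, 4 of 9 GTPases, 2 of 4 sensors and 1 of 3 transcription factors. Mx1 went from 2.23 to 31.3 CPM, 3.32 (1.18 to 4.97), Ifit1 from 8.92 to 78.0, 2.99 (1.68 to 4.56), and Ifih1 from 2.23 to 20.9, 2.76 (0.58 to 4.42). The day 2 values of Mx1 and Ifih1 are 1 UMI each. Ifi47, the most abundant of the GTPases there, was the exception at -0.07 (-0.46 to 0.34). Thinned to 1000 UMIs per cell, only 14 genes could be compared, with a median of 0.52 and 5 past the limit. With at least 20 expected UMIs, 6 of 16 genes were past the limit, with a median of 0.84. With the level that phagocyte RNA could supply subtracted, 13 of 33 were past it, with a median of 0.89; the macrophage list stood in the T cell gate at 442 CPM on day 2 and 2228 on day 7, and the T cell list at 8239 and 4580.

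After reversal the T cells differed little from day 7. Of 43 genes, 29 were higher and 14 lower, with a median of 0.23 against 0.01 over all genes. Past the limit were 3 genes in the higher direction, against 5.59% of all 9415 genes, and 0 in the lower, against 4.32%. They were Ifit3b, from 17.7 to 48.2 CPM, 1.40 (0.66 to 2.16), the GTPase Tgtp2, from 9.64 to 25.7, 1.33 (0.34 to 2.35), and Oas1a, from 9.64 to 20.4, 1.00 (-0.04 to 2.06). The lowest ratios were Ifi204 at -0.75 (-1.91 to 0.35), Oasl2 at -0.73 and Mx1 at -0.60 (-1.43 to 0.20). Under the first way of scoring the gates, the median turned to -0.22. With the level that phagocyte RNA could supply subtracted, the median was 0.44, and 6 of 42 genes were past the limit in the higher direction. The macrophage list stood in the T cell gate at 2228 CPM on day 7 and 865 after reversal.

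In endothelium, day 2 and sham differed for few of the genes. Of 42, 30 were lower, with a median of -0.18 against -0.05 over all genes. Past the limit were 5 in the lower direction, against 6.08% of all 9457 genes, and 0 in the higher, against 5.02%. Those 5 were Tgtp2, from 41.8 to 8.72 CPM, -2.14 (-3.39 to -0.98), Rsad2, from 646 to 229, -1.49 (-1.75 to -1.24), Irgm1, a GTPase that regulates other GTPases, from 66.5 to 26.1, -1.31 (-2.11 to -0.55), Zbp1 at -1.16 (-2.38 to 0.01) and Cmpk2 at -1.04 (-1.61 to -0.49). Cmpk2, a nucleotide kinase, is the genomic neighbour of Rsad2, and both were lower. The highest ratios had intervals across 0: Ifi204 at 0.71 (-0.14 to 1.60), Ifit2 at 0.43 (-0.49 to 1.38) and Dhx58 at 0.39 (-1.07 to 1.91). Oas2, Oas3, Mx1, Slfn8 and Ifi205 had too few UMIs.

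In day 7 endothelium, 42 of 43 genes stood above their day 2 level. The median was 1.12 against 0.03 over all genes. Past the limit were 28, against 6.18% of all 9994 genes, and 0 in the lower direction, against 4.27%. The 28 were 14 of 23 effectors, 9 of 11 GTPases, 4 of 5 sensors and 1 of 4 transcription factors. Zbp1 went from 11.2 to 99.5 CPM, 3.04 (2.15 to 4.06), Tgtp2 from 8.72 to 35.7, 1.92 (0.88 to 3.08), and the sensor cofactor Ddx60 from 7.47 to 30.5, 1.89 (0.79 to 3.13). Isg20 was at -0.12 (-0.87 to 0.67). The macrophage list in the endothelial gate stood at 291 CPM on day 2 and 1840 on day 7. With the level that phagocyte RNA could supply subtracted, 22 of 42 genes were past the limit, with a median of 1.02. Its part in the difference was not otherwise tested.

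After reversal, endothelium stayed close to day 7, with a median of -0.17 over 45 genes against 0.02 over all genes. In the lower direction 2 were past the limit, against 3.04% of all 11560 genes, and in the higher direction 0, against 2.89%. They were Oas2, from 7.14 to 1.74 CPM, -1.57 (-2.75 to -0.18), and Slfn8, a Schlafen family gene, from 10.0 to 4.05, -1.12 (-2.24 to -0.01). Gbp5 was at -0.74 (-1.24 to -0.26). Rsad2 went the other way, from 628 to 848 CPM, 0.43 (0.32 to 0.54), followed by Ifi205 at 0.35 (-0.76 to 1.45) and the ADP-ribosyltransferase Parp14 at 0.28 (0.05 to 0.51). The intervals of Rsad2 and Parp14 alone lay above 0, and those of 11 genes lay below it.

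Kidney endothelium is of several kinds, and the genes differed between them. After the values had been seen, cells were split by Ehd3, a gene of glomerular endothelium, and Plvap, a gene of fenestrated peritubular and venous endothelium. The 148, 77, 257 and 206 cells with an Ehd3 UMI (sham, day 2, day 7, reversed) held 3578, 2996, 6197 and 5616 CPM of the 47 genes. The 59, 58, 192 and 132 cells with Plvap and without Ehd3 held 6852, 3642, 8436 and 8548 CPM, more than the Ehd3 cells in each library. The 23, 25, 33 and 27 cells with neither held 4037, 2638, 3934 and 3900 CPM, so their day 7 and reversed sums were not above sham. Rsad2 was at 541, 191, 502 and 723 CPM in the Ehd3 cells and at 1091, 314, 879 and 1168 in the Plvap cells, and Isg15 at 115, 133, 331 and 270 against 409, 206, 540 and 482. The low day 2 value of Rsad2 was present in both. Plvap is also a marker of the gate, and cells were assigned from detected UMIs, so depth can move cells between these fractions.

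In day 2 tubule cells, most of the genes stood above their sham level, and so did many other genes. Of 37 genes, 35 were higher, with a median of 1.27 against 0.52 over all genes. Past the limit were 26, against 22.3% of all 13369 genes, and 0 in the lower direction, against 3.81%. They were 18 of 21 effectors, 4 of 8 GTPases, 3 of 4 transcription factors and 1 of 4 sensors. Ifit3 went from 21.6 to 90.0 CPM, 2.01 (1.81 to 2.22), Irf7 from 2.26 to 11.9, 1.99 (1.49 to 2.47), and Trim30a from 0.632 to 4.81, 1.83 (1.20 to 2.32). Cmpk2 at -0.35 (-0.81 to 0.11) and Irgm1 at -0.35 (-0.63 to -0.06) were the lower ones. In a split of the gate into proximal and other cells, proximal cells were 2914 of 3266 in sham and 525 of 1097 on day 2. Among proximal cells, 17 of 26 genes were past the limit in the higher direction, with a median of 1.31. Among other tubule cells, 5 of 29 were past the limit in the higher and 2 in the lower direction, with a median of 0.46. The mitochondrial limit moved the comparison of the whole gate. Among cells with at most 20% mitochondrial UMIs, 285 sham and 513 day 2 cells, the sum was 602 and 585 CPM, the median 0.18, and of 27 genes 2 were past the limit in the higher and 1 in the lower direction. With all cells and only non-mitochondrial UMIs as the total, 25 of 37 were past the limit, with a median of 1.18. The cause of the difference between these settings was not tested. With TMM scaling, whose factors in the tubule were 0.716 for sham and 1.04 for day 2, the median was 0.93 and 16 of 38 were past it. By the tubule fractions described below, Ifit3 went from 6.09 to 13.6 CPM in proximal and from 1.67 to 4.39 in collecting duct cells. It went from 23.7 to 4.31 in loop and distal cells, and from 898 to 807 in cells with general markers only. The latter were 1.04% of tubule cells in sham and 8.20% on day 2. The part of the cell mix in the pooled ratios was not tested.

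In day 7 tubule cells, 44 of 47 genes stood above their day 2 level. The median was 1.44 against 0.22 over all genes. Past the limit were 36, against 7.36% of all 13671 genes: 20 of 27 effectors, 10 of 11 GTPases, 3 of 5 sensors and 3 of 4 transcription factors. Iigp1 went from 6.13 to 36.5 CPM, 2.40 (2.00 to 2.80), Ifi44 from 1.08 to 9.93, 2.39 (1.74 to 2.95), and Zbp1 from 1.20 to 10.4, 2.37 (1.73 to 2.94), a gene whose tubule level did not exceed what phagocyte RNA could supply. In the lower direction 2 genes were past the limit, against 1.37%. They were the neighbours Ifit3b, from 46.3 to 18.7 CPM, -1.26 (-1.56 to -0.97), and Ifit3, from 90.0 to 37.6, -1.24 (-1.45 to -1.03). Ifit2 of the same family was at -0.18, while Ifit1 was at 1.61 (1.20 to 2.03). Of the 36 genes, 7 stood on day 7 at or below the level that phagocyte RNA could supply (Zbp1, Oas1a, Oas3, Slfn5, Slfn8, Ifi204 and Ifi205). Without these 7, a count added after the values had been seen, 29 of 40 genes were past the limit in the higher and 2 in the lower direction, with a median of 1.42. With that level subtracted from every gene, the median was 0.81 and of 37 genes 13 were past the limit in the higher and 3 in the lower direction. Among tubule cells with at most 1 phagocyte marker, 14 genes could be compared, with a median of 0.92, 6 past the limit in the higher and 1 in the lower direction.

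After reversal, 46 of 47 genes were lower in the tubule than on day 7. The median was -0.86 against -0.33 over all genes, and 15 genes were past the limit, against 6.53% of all 13772 genes. In the higher direction 0 were past it, against 4.05%. The 15 were 8 of 27 effectors, 5 of 11 GTPases and 2 of 4 transcription factors. Iigp1 went from 36.5 to 8.46 CPM, -1.99 (-2.33 to -1.65), Mx1 from 4.00 to 0.583, -1.66 (-2.19 to -0.95), and Ifi204 from 12.8 to 3.69, -1.56 (-2.04 to -1.07). The tubule levels of Mx1 after reversal and of Ifi204 in both libraries were within what phagocyte RNA could supply. Cmpk2 was at 0.21 (-0.29 to 0.72). At most 20% mitochondrial UMIs gave a median of -0.25 and 4 genes past the limit. With the level that phagocyte RNA could supply subtracted, the median was -0.53. Of 40 genes, 7 were then past the limit in the lower and 1 in the higher direction. The macrophage list stood in the tubule gate at 1634 CPM on day 7 and 647 after reversal.

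The Ifit3 pattern of the tubule came from few cells. After the values had been seen, tubule cells were split by the marker list with the largest share of their UMIs, into proximal (2900, 521, 197 and 1094 cells), loop and distal (240, 294, 262 and 325), collecting duct (92, 192, 196 and 131) and cells with general epithelial markers only (34, 90, 104 and 59). Cells with general markers only held 898, 807, 96.1 and 359 CPM of Ifit3. Proximal cells held 6.09, 13.6, 13.9 and 6.34 CPM, loop and distal cells 23.7, 4.31, 42.7 and 13.6, and collecting duct cells 1.67, 4.39, 17.2 and 9.58. The small fraction thus lay above the others in each library. It was 1.04%, 8.20%, 13.7% and 3.67% of tubule cells, and it held 159 of 239, 690 of 749, 88 of 235 and 180 of 263 Ifit3 UMIs of the tubule gate. Of tubule cells with at least 3 Ifit3 UMIs, it held 15 of 21, 46 of 49, 11 of 17 and 11 of 15. After reversal 1 cell held 102 of the 180 UMIs, and without it the level was 162 CPM. On day 7, 1 cell held 41 of 100 Ifit3 UMIs of loop and distal cells and 1 held 11 of 29 of collecting duct cells, and without them the levels were 25.3 and 10.8 CPM. The 1 Ifit3 UMI of sham collecting duct cells was in 1 cell.

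Of the same family, Ifit3b and Ifit2 followed in those cells. Ifit3b was at 627, 427, 44.8 and 159 CPM and Ifit2 at 107, 44.4, 7.64 and 35.9. Ifit1, whose product works with that of Ifit3, was at 16.9, 10.5, 8.73 and 102 CPM, and Isg15 at 16.9, 29.2, 39.3 and 135, so neither had the sham and day 2 values of Ifit3. Over the 47 genes the cells held 2168 CPM (1957 to 2396), 1712 (1625 to 1802), 1188 (1118 to 1261) and 2010 (1888 to 2138), and 644, 478, 1047 and 1492 without Ifit3 and Ifit3b. Genes that led these cells over the other tubule cells in every library were Fst, Bst1, Ankrd1, Lypd2, Akap12, Tshz2, Uncx, Slc4a11, Slc14a2 and Cald1. Ankrd1, a stress-responsive cofactor, stood at 265, 903, 352 and 149 CPM there, against at most 6.95 in the other tubule cells. The fraction is named here by its markers only.

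**Figure D5:**
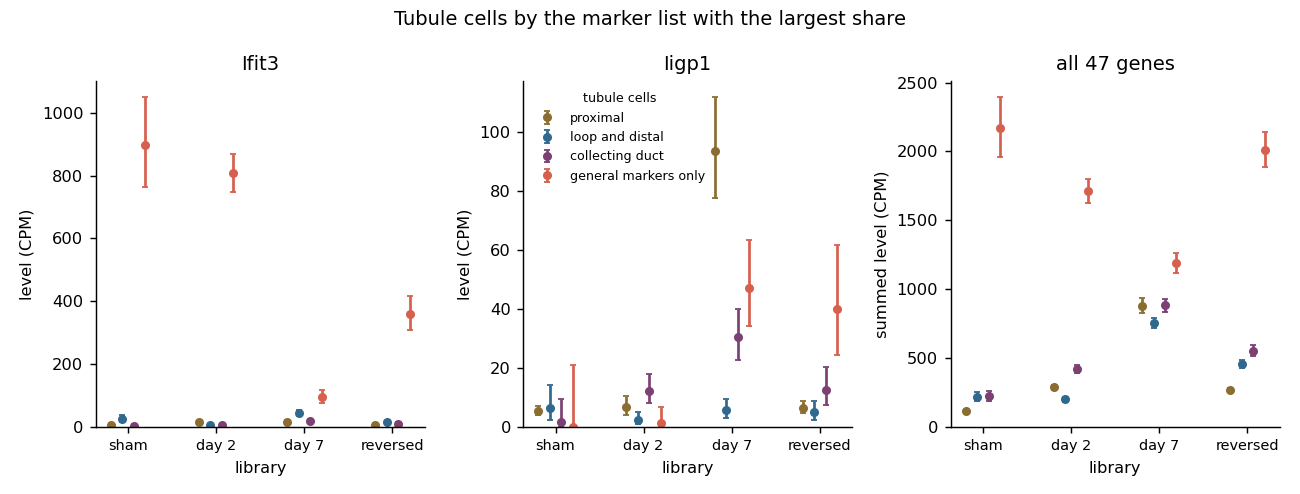
CPM of Ifit3, of Iigp1 and of all 47 genes by library in 4 fractions of the tubule gate, with exact Poisson 95% intervals. Cells with general markers only are those in which no proximal, loop and distal or collecting duct list reached its cut. They lie above the others for Ifit3 in each library, and proximal cells are highest for Iigp1 on day 7, at 93.4 CPM.

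Without that fraction the tubule still had its highest levels on day 7. Proximal cells gave 114, 286, 879 and 265 CPM over the 47 genes, loop and distal cells 219, 198, 753 and 454, and collecting duct cells 220, 419, 881 and 551. Iigp1 was mainly proximal on day 7: 5.34, 6.65, 93.4 and 6.34 CPM in proximal cells, 1.67, 12.2, 30.2 and 12.5 in collecting duct cells, and 6.47, 2.35, 5.55 and 4.84 in loop and distal cells. Irgm1 was likewise at 24.2, 28.7, 92.6 and 26.3 CPM in proximal cells, and at 19.4, 8.22, 20.9 and 16.7 in loop and distal cells. These GTPases therefore differed along the nephron on day 7, by counts of 1 library.

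Transcripts that mark phagocytes stood higher in the other gates on day 7 than in the other libraries; free RNA, doublets and attached cells cannot be told apart here. C1qa, C1qb and C1qc, which T cells, endothelium and tubule should lack, stood in the tubule at 0.301%, 2.37%, 8.28% and 3.10% of their phagocyte level. In endothelium they stood at 0.222%, 2.31%, 9.41% and 3.24%, and in T cells at 1.16%, 3.06%, 10.7% and 3.65%. The same share of the phagocyte levels of the 47 genes would make 5.45%, 8.00%, 35.4% and 18.6% of their tubule sum, at most 5.12% of their endothelial sum and at most 15.8% of their T cell sum. On day 7, 7 genes of the tubule gate lay at or below that level: Zbp1, Oas1a, Oas3, Slfn5, Slfn8, Ifi204 and Ifi205. The source of these UMIs was not tested, and their levels and ratios on day 7 cannot be told apart from phagocyte RNA. On day 2 there were 6 (Zbp1, Mx1, Slfn5, Slfn8, Ifi204 and Ifi205), and after reversal 3 (Mx1, Ifi204 and Ifi205). In endothelium Ifi205 was at or below it on days 2 and 7. In T cells Ifi205 was at or below it on day 2, and Oasl1, Ifi204 and Ifi205 on day 7. Above the level by more than 2-fold on day 7 were 29 genes in the tubule, 45 in endothelium and 40 in T cells.

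The rest of the pathway was followed through 40 further genes. Of the ligands, Ifng was found in T cells, at 48.3, 53.5, 43.4 and 55.7 CPM, and at most at 1.43 elsewhere. Ifnb1 and Ifnl2 had 1 UMI each over all gates and libraries, and Ifna2, Ifna4 and Ifnl3 had 0, so these 5 ligands were at the limit of detection; other type I interferon genes were not counted. Receptors were present in all gates, with Ifngr1 at 468, 340, 377 and 362 CPM in phagocytes and Ifnar1 at 75.8, 75.9, 88.1 and 84.5 in endothelium. Ifnlr1, the type III receptor chain, was at 0.181, 3.73, 3.52 and 2.14 CPM in the tubule.

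In phagocytes on day 2 against sham, 2 of 27 pathway genes with enough UMIs were past the limit in the higher direction, against 9.46% of all genes, and 3 in the lower, against 8.83%. Both counts are near those shares. The inhibitor Socs3 went from 30.2 to 260 CPM, 3.06, and Ptpn2, a phosphatase, was at 1.06. The endosomal sensor Tlr7 (-1.54), the chemokine Cxcl9 (-1.40) and Ciita (-1.02), the activator of class II genes, were lower. On day 7 against day 2, 6 of 33 were past the limit in the higher direction, against 7.0% of all genes, and 0 in the lower, against 2.69%: Tlr3 (1.45), Tlr9 (1.11), Cxcl9 (1.98), Ciita (1.47), Nlrc5 (1.53) and H2-K1 (1.25). After reversal 0 of 32 were past it in either direction, against 2.86% of all genes higher and 0.675% lower.

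In T cells on day 7 against day 2, 3 of 27 pathway genes were past the limit in the higher direction, Tyk2 (1.06), Irf8 (1.07) and Cxcl10 (2.06), a count near the 10.7% of all genes. After reversal 2 of 30 were past it in the lower direction, against 4.32% of all genes, Tyk2 (-1.11) and Cxcl9 (-1.63). In endothelium on day 2 against sham, 4 of 24 were past it in the higher direction, against 5.02% of all genes, Stat3 (1.17), Tmem173 (2.10), which encodes the DNA-sensing adaptor STING, Irf8 (1.30) and Socs3 (1.87), and the inhibitor Socs1 was past it in the lower direction (-1.40), against 6.08%. On day 7 against day 2, 6 of 30 were past it in the higher direction, against 6.18%: Ifngr2 (1.02), Ptpn6 (1.27), Cxcl10 (1.12), Ciita (1.78), Nlrc5 (1.74) and Psmb9 (1.24). After reversal 2 of 31 were past it in the lower direction, against 3.04%, the chemokines Cxcl9 (-1.38) and Cxcl10 (-1.08). The C1q genes stood in T cells at 3.06% of their phagocyte level on day 2 and at 10.7% on day 7. In endothelium they stood at 2.31% and 9.41%. The part of phagocyte RNA in the pathway ratios of these 2 gates was not tested.

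In the tubule, 17 of 29 pathway genes were past the limit on day 2 against sham, where 22.3% of all genes were. The largest were Socs3, from 3.16 to 68.2 CPM, 4.05, Tmem173, from 0.542 to 16.3, 3.49, and Stat3, from 15.7 to 97.7, 2.56. The others were Ifnar1 (1.06), Ifngr1 (1.44), Ifngr2 (1.68), Ifnlr1 (2.00), Tyk2 (1.06), Tlr3 (1.25), Mavs (1.35), Ptpn2 (1.37), Ciita (1.42), Tap1 (1.57), Psmb8 (2.15), Psmb9 (1.90), H2-K1 (1.38) and H2-D1 (1.49). On day 7 against day 2, 12 of 33 were past it in the higher direction, against 7.36%: Tlr7 (1.32), Irf5 (1.61), Irf8 (1.47), Socs1 (1.64), Ptpn6 (1.28), Cxcl9 (2.61), Cxcl10 (1.94), Nlrc5 (1.52), Tap1 (1.60), Psmb8 (1.68), Psmb9 (1.57) and H2-D1 (1.25). After reversal 8 of 33 were past it in the lower direction, against 6.53%: Irf5 (-1.19), Socs3 (-1.24), Ptpn6 (-1.17), Cxcl9 (-1.02), Cxcl10 (-2.38), Tap1 (-1.27), Psmb8 (-1.42) and Psmb9 (-1.28). Irf5, Irf8, Ptpn6 and Cxcl9 stood in day 7 phagocytes at 186, 444, 308 and 102 CPM, against 16.3, 29.3, 45.7 and 6.57 in the tubule, and the part of phagocyte RNA in these was not tested.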

How the data were processed

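Droplet 3′ libraries (10x V2) were made from kidneys digested on ice and sorted for live cells, per the labels' protocols. The matrices that the authors deposited hold whole UMI counts, not normalized, with genes and cells as dimensions. Cell Ranger, STAR, GRCm38 and mm10 are named in the submitters' processing notes, without versions. Gene symbols were taken from the deposited gene table.

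Barcodes under 200 genes or over 50% mitochondrial UMIs were dropped. The automatic Scrublet threshold (scanpy 1.11.5) marked 0 to 8 cells per library, so the highest scores were removed at 0.8% per 1000 cells (187, 48, 160 and 96 cells), leaving 3746 sham, 2159 day 2, 4287 day 7 and 3140 reversed cells. A cell entered a gate when the gate's marker list took at least 30 (phagocytes) or 20 (others) of 10000 UMIs, with at least 3 markers detected. T cells also needed a Cd3 transcript. Cells that reached another gate's list, or at least 2 neutrophil, B cell or stromal markers at that share, were left out, and so were natural killer cells except from the T cell gate; tubule markers excluded no cell from other gates. This scoring replaced one by the number of distinct markers after that one was seen to admit deep tubule cells with phagocyte RNA. The former scoring is kept as an alternative. Between 4.27% and 12.1% of cells fell in no gate, and 5, 49, 147 and 32 cells met at least 2 classes. These were left out, except that cells meeting only the T cell and natural killer lists could stay in the T cell gate.

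Counts were summed per gate and library and given as CPM, with exact Poisson, conditional binomial and Clopper-Pearson intervals that cover counting error only. With 1 library per group there was no test and no p-value. The script for the ratios was tested on simulated counts. The genes named are the 6 with the most UMIs per gate, up to 3 with the highest and 3 with the lowest ratio per comparison, and pathway genes past the fold limit with the ligands. Others named (Cmpk2, Ifit2, Ifit1, Zbp1 and Ifi205 in some places) and the fractions of the tubule and endothelial gates were chosen after their values were seen. The members, lists and comparisons were chosen with earlier results of these data known. Software comprised R 4.3.3 and Python 3.11.15 with pandas 2.3.3, scipy 1.17.1, matplotlib 3.10.9 and numpy 2.4.6, edgeR 4.0.16 (TMM factors) and DESeq2 1.42.0 (size factors). Some genes of the lists are not reported here.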

Additional observations from a re-analysis of the deposited data

Results flagged for a closer look

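Some cell classes moved in opposite directions under the same comparison, by the median log2 ratio of the interferon-stimulated genes. None of these differences was tested, since each group is 1 library. From sham to day 2 the median was -1.03 in phagocytes and -0.18 in endothelium, against 1.27 in the tubule. Over all genes compared, the medians were 0.08, -0.05 and 0.52 in these gates. In endothelium the intervals of 8 of 42 genes lay below 0. The phagocyte value rests on 31 genes and 72 sham cells. The tubule value was 0.18 at a mitochondrial limit of 20%, 0.93 with TMM scaling, and 0.46 among tubule cells that were not proximal. From day 7 to the reversed library the median was 0.23 in T cells, against -0.53 in phagocytes, -0.17 in endothelium and -0.86 in the tubule. Over all genes compared, the medians were 0.01, -0.01, 0.02 and -0.33 in the same order. Under the former scoring of the gates the T cell value was -0.22. With the level that phagocyte RNA could supply subtracted, the T cell value was 0.44.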

How the results depend on the processing

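No paired analysis was possible because each group has 1 library. Of 360 recomputed levels and medians under 18 settings, 230 stayed within the main value's interval or spread, 129 did not and 1 turned its direction; the cause was not tested. Values below that moved are sums in CPM or median log2 ratios.
At a mitochondrial limit of 20%, endothelium was at 6607 after reversal and the tubule at 602 in sham, 585 on day 2 and 697 after reversal, with tubule medians of 0.18 (day 2 against sham) and -0.25 (reversed against day 7). Without doublet removal endothelium was at 4170, 2978, 6394 and 6027 (sham, day 2, day 7, reversed). With cells above 0.5 of the tubule's median tubule marker share left out of other gates, and tubule cells with over 1 phagocyte marker left out, endothelium was at 7123 on day 7 and 6663 after reversal, and the tubule at 149, 397 and 317.5 in sham, on day 2 and after reversal, with medians of 0.92 (day 7) and -1.75 (reversed). With equal weight per cell, phagocytes were at 1583, 4021 and 2852 from day 2 on, T cells at 1487 and 2845 on days 2 and 7, endothelium at 4894, 3394, 7423 and 6921, and the tubule at 147, 413, 839.6 and 366, with a reversed median of -1.07. Thinned to 1000 UMIs, phagocytes were at 1617, 4069 and 2810, T cells at 2780 on day 7 (median 0.52), endothelium at 4883, 3438, 7326 and 6737 (day 7 median 1.26), and the tubule at 139, 412 and 382 in sham, on day 2 and after reversal, with medians of 1.73 and -1.10.
C1q-high phagocytes were at 1288, 3872 and 2937 (reversed median -0.40), and C1q-low ones at 1681, 3082 and 1920 (medians 0.90 and -0.62). A split into proximal and other tubule cells, separate from the 4 fractions above, held 2914, 525 and 1098 proximal cells in sham, on day 2 and after reversal. These proximal tubule cells were at 114, 285 and 265 in the same libraries (reversed median -1.5), and other tubule cells at 437, 520.1 and 678 (medians 0.46 for day 2 and -0.34 for reversed). Under the former scoring of the gates, chosen as an alternative after seeing the data, phagocytes were at 1298, 3206 and 2220, T cells at 2983 and 2413 on day 7 and after reversal, with a reversed median of -0.22 in place of 0.23, endothelium at 7543 and 5638 (medians 1.25 and -0.42), and the tubule at 476, 746 and 402 (day 7 median 0.94). With 1.5 times the gate minimum, also added later, phagocytes were at 3817 and 2718 on day 7 and after reversal, endothelium at 4552 and 7041 in sham and on day 7, and the tubule at 145.5 and 835. With carried-over phagocyte RNA subtracted, T cells were at 2153 and endothelium at 6536 on day 7, and the tubule at 153, 405, 584 and 353 (medians 0.81 and -0.53). With non-mitochondrial UMIs as the total, also added later, phagocytes were at 1533, 3863 and 2684, T cells at 3066 after reversal, endothelium at 4660, 3321, 7134 and 6776, and the tubule at 242, 543, 994 and 569.6. Without the 2 most abundant genes of each gate, phagocytes were at 2422, 1183, 3077 and 2072, T cells at 1689, 1066, 2176 and 2580, endothelium at 3025, 2511, 5326 and 4864, and the tubule at 129, 308, 724.5 and 358.
For the tubule, TMM factors gave medians of 0.93 (day 2) and -0.52 (reversed), median-of-ratios factors 0.89 and -0.55, and a pseudocount of 10 CPM 0.45, 0.60 (day 7) and -0.42. That pseudocount gave 1.12 (day 7) and -0.41 (reversed) in phagocytes and 0.93 (day 7) in endothelium. Over the settings that gave a value, the number of genes past the fold limit (in the lower direction for phagocytes on day 2 and the tubule after reversal, in the higher one otherwise) was as low as 6 in place of 18 for phagocytes on day 2, 20 in place of 38 on day 7, 5 in place of 23 for T cells on day 7, 19 in place of 28 for endothelium on day 7, and 2 in place of 26, 6 in place of 36 and 3 in place of 15 for the tubule on day 2, on day 7 and after reversal. It was as high as 27 in place of 18 for phagocytes on day 2 and 27 in place of 15 for the tubule after reversal. Small counts ranged from 0 to 9 (1) in phagocytes after reversal, 0 to 6 (3) in T cells after reversal, in the higher direction, and 3 to 7 (5) and 0 to 5 (2) in endothelium on day 2 and after reversal, with the main count in parentheses and, but for T cells, in the lower direction.
Depth limits the sham phagocytes and T cells most: 3 UMIs are 11.3 and 72.4 CPM there, against 0.183 CPM in day 7 phagocytes.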
